A study of Schmidtea mediterranea with 58 samples.

Results

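Broad H3K4me3 regions at single gene starts were followed through 7 comparisons of planarian chromatin. A broad region was a listed stretch of at least 2000 bases with exactly 1 gene start within 200 bases of it. The comparisons listed 16158 regions, of which 531 met this rule, at 508 genes. A further 10752 listed regions also lay at a single gene start but were shorter, and 270 were long but lay at no start or at several. The broad regions were 232 of 1378 in the comparison of X1 with Xins cells, 104 of 8633 after set1 RNAi in whole worms, 178 of 5169 after mll RNAi in whole worms, 12 of 554 after set1 RNAi in X1 and 5 of 306 after mll RNAi in X1. No region of the 106 after set1 RNAi or of the 12 after mll RNAi in Xins met the rule, the longest at a single start there being 1900 and 1700 bases.

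The animal was the flatworm Schmidtea mediterranea, and H3K4me3 was measured by chromatin immunoprecipitation followed by sequencing (ChIP-seq). X1 cells are the sorted dividing cells that irradiation removes, and Xins cells are those that irradiation spares; both were also taken untreated, labelled as wild type with no RNAi. Worms received set1 RNAi (6 days) or mll RNAi (9 days), and each had its own unc RNAi control, for which the labels do not give the days. Every group in a comparison had 2 libraries, and the labels do not say whether these came from separate worms or cultures, so the spread between them may be technical. RNAi lowers the messenger RNA of its target by a degree that ChIP-seq does not measure, and whole worms mix all cell types, so fewer cells of a type and less mark per cell cannot be told apart.

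H3K4me3 is the trimethylated form of a lysine in the tail of histone H3, and it marks the starts of genes that are transcribed or ready to be. It is laid down by complexes built around SET1 or MLL enzymes, which in flies and mammals divide the work, with SET1 responsible for most of the mark and MLL enzymes for narrower groups of genes. In mammals, stretches of the mark that run far into a gene are known for genes that define a cell's identity. In these data "broad" has a narrower meaning. The length is that of a stretch over which 2 groups of libraries were found to differ, in steps of 100 bases, and not the width of a peak in any one library. The gene identifiers were not matched to gene names, so the genes are given by identifier and scaffold position (scaffolds of the v31 series, positions counted from 1), the roles of their products are not described, and no sequence is shown. The sorted populations and the 2 RNAi targets could for the same reason not be checked against marker genes.

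Depth differed widely. In whole worms the median broad region held 1241 to 2257 reads per library in the set1 comparison and 1316 to 1969 in the mll comparison. In untreated cells the median was 57 and 189.5 reads for the X1 libraries and only 6 and 26.5 for the Xins libraries. Levels below are normalized counts per region, and enrichment is the ratio of H3K4me3 to input that the authors deposited for each group. How the counts were scaled between libraries is not given. A rise or fall is therefore one of the scaled count, and whether a small one is a change in the amount of mark was not tested. Changes are log2 differences of the normalized count plus 1 with the limma standard error (SE), called at a Benjamini-Hochberg adjusted p below 0.05 over every region of a comparison. The regions had been listed for differing between these same libraries, and length itself grows with the stretch that differs, so a call is a description and not independent evidence.

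The untreated comparison set dividing cells against cells that survive irradiation. Broad regions showed large differences in both directions. Of the 232 regions, 145 had the higher count in X1 and 87 the higher count in Xins, with X1 over Xins read from the order in which the comparison is named. The median absolute log2 change was 2.65, against 1.10 at shorter single-start regions and 1.36 over all 1378 regions. A change of 1 or more was seen at 225 of the 232 broad regions and at 984 of all regions. The libraries of the 2 populations did not overlap at any of the 232 (99.6% of all regions did not).

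Several broad regions were near input in one population and strongly marked in the other. Among the 145 higher in X1, the median enrichment was 14.7 in X1 and 2.80 in Xins, and 26 were under input (below 1) in Xins. Among the 87 higher in Xins, the medians were 0.69 in X1 and 9.01 in Xins, and 52 were under input in X1. Of all 1378 regions, 11.7% were under input in X1, while 22.4% of the broad regions were. In Xins the shares were 5.44% and 11.2%. The broad regions were also of lower density, with a median of 15.4 normalized counts per 1000 bases against 26.8 at the shorter ones, and the part of this in the shares under input was not tested.

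**Figure D1:**
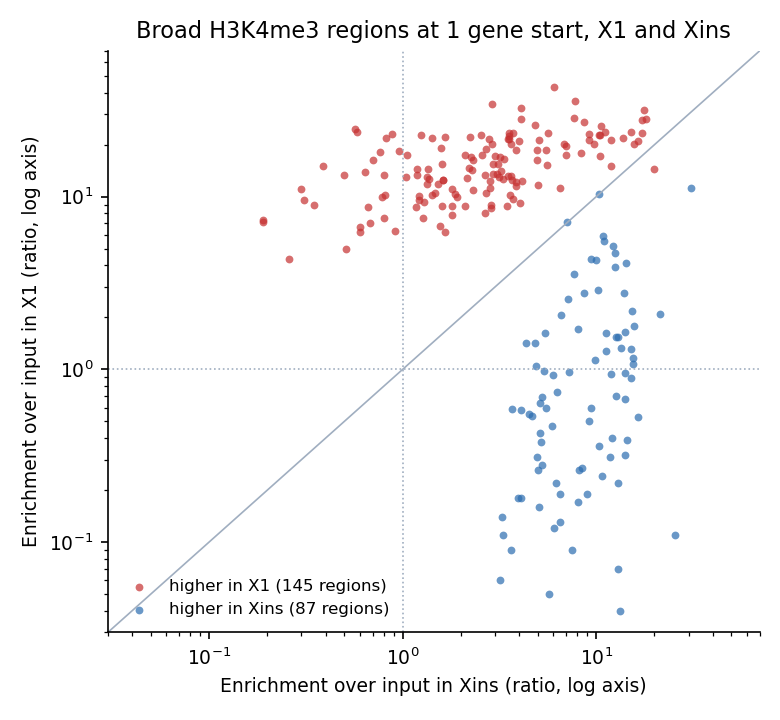
Enrichment over input (ratio, log axes) of the 232 broad regions in Xins (horizontal) and X1 (vertical), 1 point per region; red points have the higher normalized count in X1 and blue points in Xins, dotted lines mark an enrichment of 1, the grey line marks equality, and a region listed at 0 is drawn at 0.04. Most of the 87 blue points lie far below the line, 52 of them under 1 in X1, and 26 of the 145 red points lie under 1 in Xins.

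Limma called 143 broad regions higher in X1 (56.2% of all regions were called higher) and 87 lower in X1 (32.1% of all regions). The number of calls depended strongly on which pair of libraries set the spread. With 1 library left out, only the pair of the other group gives it. The calls were kept when that was the X1 pair, and most were lost when it was the shallower Xins pair. They thus leaned on the close agreement of the X1 libraries. The median change stayed between 1.39 and 1.68 with any single library left out. At 27 regions (11.6%, against 9.80% of all regions) at least 1 library was listed at 0, and the size of the change there depends on the pseudocount.

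The region with the largest difference toward X1 lay at SMED30010424 (v31.001348, 72901 to 75700). Its counts were 144 and 153 in X1 and 0 and 12.0 in Xins, and its enrichment was 24.6 in X1 and 0.57 in Xins. The X1 libraries held 155 and 550 reads there and the Xins libraries 0 and 14, so the populations were far apart but the Xins level itself was poorly determined. Its log2 change was 5.37 (SE 1.28, limma adjusted p 0.0183), and 4.25 with a pseudocount of 4. The next largest rise was at SMED30017530 (v31.000688, 121901 to 124200), whose counts of 83.5 and 74.1 stood against 0 and 3.43 (log2 change 5.24, SE 0.79, limma adjusted p 0.00812; 3.92 with a pseudocount of 4). SMED30014394 (v31.000226, 71701 to 74500) had 85.4 and 111 in X1, with 0 and 6.86 in Xins, and SMED30025421 (v31.000099, 231401 to 233900) had 66.1 and 76.8 against 0 and 3.43. In all 4 regions the mark was under input in Xins, with enrichments of 0.57, 0.30, 0.50 and 0.82.

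Toward Xins, the largest difference was at SMED30027460 (v31.000532, 123201 to 126100). Its counts were 0 and 3.30 in X1 and 77.5 and 64.3 in Xins, with enrichments of 0.22 and 13.0, and a log2 change of -5.11 (SE 0.78, limma adjusted p 0.00831). SMED30005949 (v31.000843, 7901 to 10700) had 0 and 0.55 in X1 against 41.0 and 39.5 in Xins. SMED30031665 (v31.001030, 104301 to 107700) had 1.84 and 2.75 in X1 against 95.7 and 112 in Xins, a log2 change of -5.00 (SE 0.32). Here no library was at 0 and the second-listed X1 library, the deeper of the pair, held only 10 reads. At SMED30011827 (v31.000265, 155901 to 158300) the enrichment was 25.6 in Xins and 0.11 in X1, from counts of 36.5 and 49.8 against 0.92 and 0.28. A single broad region, at SMED30003169 (v31.000990, 41201 to 43200, named after its values were seen), was listed at 0 in both X1 libraries. Its Xins counts were 26.6 and 18.9, at least 12.6-fold higher than the level of 3 reads per X1 library.

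The longest stretches ran over more than 4000 bases. SMED30008707 (v31.000000, 200901 to 205400) and SMED30012522 (v31.000017, 310801 to 315100) were both higher in Xins, at 63.8 and 66.9 against 1.84 and 1.38, and at 36.5 and 55.8 against 3.67 and 1.10. SMED30016975 (v31.000031, 293301 to 297700) was higher in X1, at 150 and 153 against 18.2 and 12.9 (log2 change 3.22, SE 0.22, limma adjusted p 0.00306). The 2 regions with the highest mean enrichment were marked in both populations. At SMED30019889 (v31.000501, 2201 to 4300) the enrichment was 43.1 in X1 and 6.08 in Xins, and at SMED30021674 (v31.000076, 174401 to 176600) it was 31.8 and 17.7, with a log2 change of only 0.67 (SE 0.15).

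The RNAi comparisons asked where each methyltransferase gene is needed for the mark. After set1 RNAi in whole worms, broad regions leaned toward loss. Of 104, 65 (62.5%) had the lower mean count after RNAi and 39 the higher, whereas 40.5% of shorter single-start regions and 48.3% of all 8633 regions were lower. The median log2 change was -0.13 (quartiles -0.23 and 0.10), against 0.03 at shorter and 0.01 at all regions. These were small changes. The median was -0.21 among the lower and 0.12 among the higher regions, and 1 region changed by 0.5 or more.

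Limma called 63 broad regions lower (25.8% of all regions) and 32 higher (15.1% of all regions), and at all 104 the RNAi and control libraries did not overlap (77.7% of all regions). A reading of the enrichment gave a different split. Over all regions the enrichment was lower after set1 RNAi at only 20.6%, and its median was 13.4 after RNAi and 11.9 in the control. Among the broad regions it was lower at 30.8% (32 of 104), and only 31 of the 65 with a lower count also had a lower enrichment. The lean of broad regions relative to the rest thus had the same sign on both scales, while the direction of a single region often did not.

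**Figure D2:**
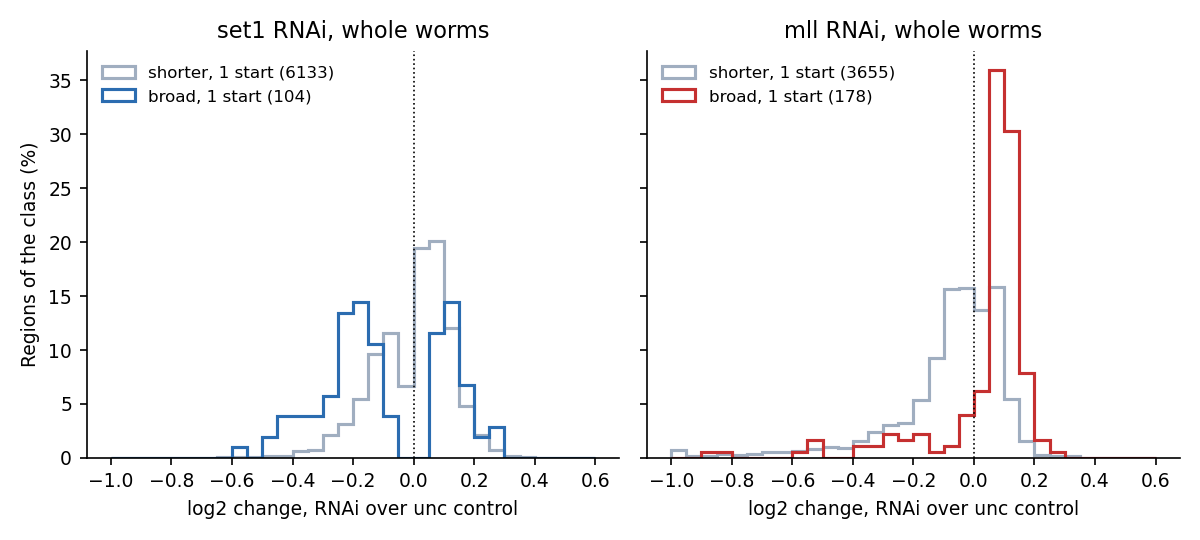
Distribution of the log2 change of the normalized count (horizontal, RNAi over unc control, bins of 0.05, values beyond -1 and 0.6 drawn in the end bins) after set1 RNAi (left) and mll RNAi (right) in whole worms, as the percent of regions of each class (vertical); coloured lines are broad regions and grey lines shorter regions at 1 gene start, with the number of regions in brackets. The 104 broad set1 regions lie on both sides of 0 with a median of -0.13 and a smallest absolute change of 0.055. The 178 broad mll regions are gathered just above 0 with a median of 0.09. All were listed for differing between these libraries, which can thin out the values near 0.

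The largest fall after set1 RNAi was at SMED30017177 (v31.009044, 6101 to 8500). It had 1012 and 1006 after RNAi where the control had 1441 and 1581, a log2 change of -0.58 (SE 0.04, limma adjusted p 7.60e-41), and its enrichment was 9.50 against 10.8. Within it, a stretch of 1000 bases fell in X1 as well, from 61.1 and 76.7 to 34.7 and 22.8 (log2 change -1.25, SE 0.21), and a stretch of 1300 bases rose after mll RNAi in whole worms, from 705 and 717 to 824 and 768 (0.16, SE 0.05, limma adjusted p 0.00238). SMED30029710 (v31.005926, 10901 to 12900) held 1410 and 1358 against 1895 and 1966 (-0.48, SE 0.04). A stretch of it was listed in X1 at -0.95 (SE 0.14) and another in Xins at -0.91 (SE 0.24), so that the loss was called in whole worms and in both sorted populations. SMED30033929 (v31.004931, 24001 to 26100) and SMED30011017 (v31.000010, 82701 to 85700) changed by -0.45 and -0.43 in whole worms (SE 0.04 for both). Each also held a stretch that fell in X1, by 0.73 and by 0.91 on the log2 scale. SMED30011017 was also the longest broad set1 region, at 3000 bases.

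Rises after set1 RNAi were smaller. SMED30034709 (v31.000539, 20201 to 22200) went from 1070 and 1136 in the control to 1363 and 1348 (log2 change 0.30, SE 0.04, limma adjusted p 3.40e-11), and its enrichment from 6.79 to 10.4. SMED30034961 (v31.000252, 186001 to 188000) rose by 0.27 (SE 0.04), SMED30025250 (v31.001837, 34701 to 36800) by 0.25 (SE 0.04) and SMED30032593 (v31.000599, 80201 to 82300) by 0.21 (SE 0.04). Listed mll regions lay over all of these. At SMED30025250 the mll region was 1900 bases long, just under the limit, and fell from 846.5 and 896 to 366 and 402 in whole worms (log2 change -1.18, SE 0.05, limma adjusted p 1.16e-102). It fell in X1 from 170 and 159 to 33.1 and 23.1 (-2.53, SE 0.17), and a part of it fell in Xins from 64.5 and 56.9 to 23.6 and 28.8 (-1.18, SE 0.20). At this gene the mark was thus lost after mll RNAi wherever it was listed, and slightly higher after set1 RNAi. SMED30034709 showed the same pair of directions, with mll changes of -0.44 (SE 0.05) in whole worms and -0.86 (SE 0.21) in Xins, and so did SMED30034961, at -0.17 (SE 0.04) in whole worms. At SMED30032593 the mll value was 0.08 (SE 0.04, limma adjusted p 0.0744).

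The other named set1 regions had smaller changes than these falls and rises. SMED30019559 (v31.005068, 4501 to 7200) had 2762 and 2719 against 2607 and 2668 in the control (limma adjusted p 0.228). SMED30035416 (v31.001835, 44401 to 47000), whose start lay 120 bases outside the stretch, had 2000 and 2096 against 2343 and 2284 (log2 change -0.18, SE 0.04, limma adjusted p 4.49e-05). Its enrichment was higher after RNAi, at 13.05 against 12.41. The highest mean enrichments were at SMED30023915 (v31.005180, 1401 to 3500), at 21.5 after RNAi and 18.4 in the control, and at SMED30022821 (v31.021188, 7801 to 10000), at 22.2 and 17.0. Their log2 changes in count were only 0.09 and 0.07 (SE 0.04 for both, limma adjusted p 0.0489 and 0.125).

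After mll RNAi in whole worms the broad regions leaned the other way. Of 178, 147 had the higher count after RNAi and 31 (17.4%) the lower, against 62.8% lower at shorter single-start regions and 57.5% over all 5169. The median log2 change was 0.09, against -0.04 and -0.03. Limma called 96 higher (10.9% of all regions) and 24 lower (26.3% of all regions), and at 173 the RNAi and control libraries did not overlap (74.2% of all regions). The number of calls depended on the spread that was assumed. Without a trend of the variance on the mean, 77 were called, 55 of them higher, and without the first-listed control library 79, of which 58 were higher.

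The 147 regions with the higher count and the 31 with the lower had different median levels. The higher regions had a median density of 750 normalized counts per 1000 bases, a median enrichment of 12.1 in the control and a median log2 change of only 0.10. The lower regions had 542 counts per 1000 bases and a control enrichment of 9.95, which was 7.76 after RNAi, and a median of -0.23. The 6 broad regions that changed by 0.5 or more were all lower. On the enrichment scale 91 of the 178 (51.1%) were lower after mll RNAi, against 69.6% of all regions and 71.9% of the shorter ones. Of the 147 with a higher count, 84 also had a higher enrichment and 61 a lower one. Here too the difference from shorter regions kept its sign while the direction of a region with a small change depended on the scale.

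The largest falls were clear in every library. SMED30018061 (v31.029320, 4001 to 6100) had 405 and 450 against 801 and 788 in the control (log2 change -0.89, SE 0.05, limma adjusted p 2.50e-60), and its enrichment was 4.96 against 9.95. SMED30013857 (v31.015526, 601 to 2600) had 442 and 452 against 762 and 840 (-0.84, SE 0.05), and the stretch listed there in X1 fell from 120 and 123 to 44.9 and 68.5 (-1.12, SE 0.18). SMED30016924 (v31.004321, 14401 to 16400) had 717 and 682 against 1012 and 1029 (-0.55, SE 0.04). In none of these did the RNAi libraries reach the control libraries.

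The largest rises were within the range of 0.20 to 0.26. SMED30028740 (v31.000175, 103801 to 105800) had 1312 and 1239 after mll RNAi against 1063 and 1062 (log2 change 0.26, SE 0.04, limma adjusted p 1.49e-10). SMED30028411 (v31.000808, 15701 to 17800) changed by 0.22, SMED30012419 (v31.002396, 26701 to 28700) by 0.21 and SMED30000393 (v31.010151, 18801 to 20900) by 0.20 (SE 0.03, 0.03 and 0.04). Of these 4, SMED30028740 and SMED30012419 were overlapped by stretches whose counts fell after set1 RNAi in whole worms, by 0.16 and 0.10 on the log2 scale. The enrichment of these stretches was higher after set1 RNAi at SMED30028740 (14.07 against 12.65) and nearly equal at SMED30012419 (5.38 against 5.39).

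The longest broad mll regions covered several of the stretches listed after set1 RNAi. SMED30025591 (v31.007072, 5801 to 9400) had 3201 and 3244 against 2965 and 3021 (log2 change 0.11, SE 0.03, limma adjusted p 0.000529). Over it lay 2 set1 regions in whole worms, at -0.22 and -0.21 (SE 0.04 for both), and 2 in X1, at -0.83 (SE 0.15) and -0.41 (SE 0.10). The enrichment of the whole-worm ones was 14.66 against 15.44 and 13.92 against 13.35, so it fell in the first only. SMED30035216 (v31.002777, 1201 to 4600) had 3372 and 3484 against 3147 and 3195 (0.11, SE 0.03), and 3 overlapping set1 stretches lay over it. The middle one, at the gene start, had a log2 change of 0.05 (SE 0.04, limma adjusted p 0.252). The outer ones fell in count by 0.17 and 0.13 (SE 0.04 for both), but their enrichment was higher after RNAi (17.2 against 14.8 and 20.5 against 16.8). SMED30027511 (v31.001390, 76501 to 79600) had 2600 and 2608 against 2344 and 2390 (0.14, SE 0.03). A set1 stretch away from its start fell by 0.26 (SE 0.04, enrichment 12.25 against 12.97). One at the start was at 0.06 (SE 0.04, limma adjusted p 0.173). The regions of highest mean enrichment were at SMED30018637 (v31.006763, 8401 to 10800) and SMED30013157 (v31.015965, 5401 to 7700). Each was partly overlapped by a set1 stretch without a start that fell in whole worms, both by 0.35 (SE 0.04). The enrichments of these stretches were 11.6 against 14.8 and 16.1 against 18.8. At SMED30018637 the stretch with the start was listed in Xins, where it fell after set1 RNAi too (-0.63, SE 0.18, limma adjusted p 0.000973). At SMED30013157 the stretch with the start rose after set1 RNAi (0.14, SE 0.04, limma adjusted p 0.00286).

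Listed regions of opposite direction also overlapped inside a comparison. In whole worms after set1 RNAi, 32 of the 104 broad regions (30.8%) overlapped another listed region of the opposite direction, as did 62.9% of all regions. After mll RNAi these were 12 of 178 (6.74%), against 20.2% of all regions. Overlapping regions of 1 comparison were nearly always of opposite direction. Over all regions this was so at 5428 of 5475 after set1 RNAi and at 1043 of 1043 after mll RNAi. The counts therefore tell how often listed regions overlapped, and the direction adds little.

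The share of losses among single-start regions differed between length classes, most between those below and those above the limit. After mll RNAi in whole worms the share with a lower count was 64.5% at 1000 to 1300 bases, 66.6% at 1400 to 1600, 53.3% at 1700 to 1900, 19.6% at 2000 to 2200 and 10.0% at 2300 or more. After set1 RNAi the shares were 41.1%, 41.8%, 35.7%, 61.1% and 71.4%, the last of only 14 regions. In untreated cells the share lower in X1 was 63.6% in the shortest class and 34.6% in the longest.

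**Figure D3:**
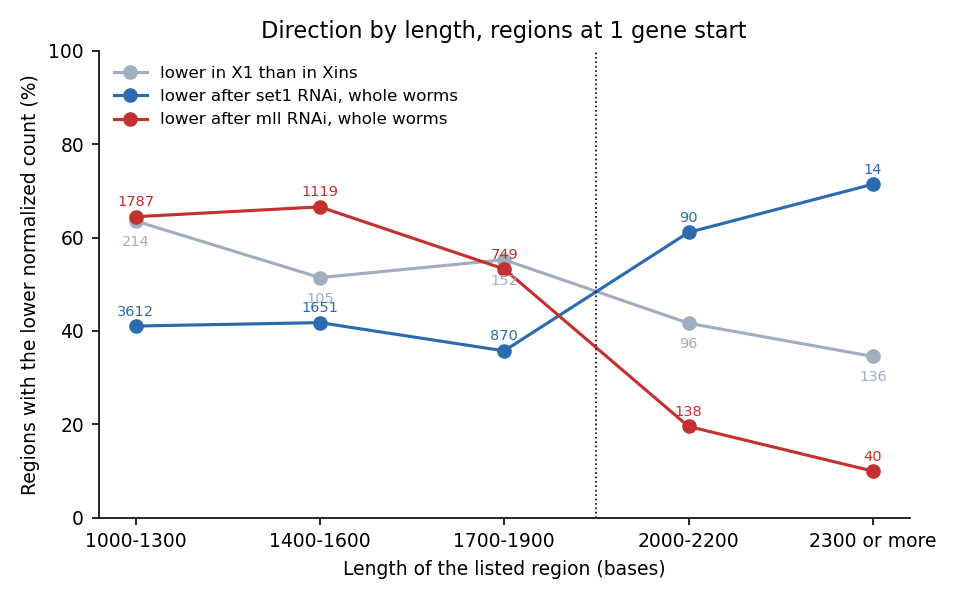
Percent of regions at 1 gene start with the lower normalized count (vertical) by length of the listed region (horizontal, bases), in the X1 over Xins comparison (grey) and after set1 (blue) or mll (red) RNAi in whole worms; the numbers beside the points are the regions in each class and the dotted line is the length limit of 2000 bases. The mll line falls from 64.5% to 10.0% and the set1 line ends at 71.4%.

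Regions on either side of the limit were set side by side. After mll RNAi 54 of 145 single-start regions of 1900 bases were lower and 13 of 64 of 2000 bases, with median log2 changes of 0.06 and 0.08. After set1 RNAi 61 of 154 and 29 of 51 were lower, with medians of 0.06 and -0.15. In the X1 and Xins comparison 35 of 55 and 14 of 28 were lower in X1. Of the long regions at no start or at several, 71.6% of 81 were lower after set1 RNAi and 47.7% of 65 after mll RNAi, so the set1 direction was not limited to single starts. Nearly all broad regions contained their start, 224 of 232, 96 of 104 and 173 of 178 in the comparisons of untreated cells, set1 and mll, and the start of the others lay at most 169 bases away.

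Broad regions of both RNAi comparisons in whole worms were set against each other at the genes they shared. The set1 and mll comparisons had 18 such genes, always with overlapping regions and with separate unc controls. At 14 of them the count was lower after set1 RNAi and higher after mll RNAi, at 4 it was higher in both, and at none was it lower in both or changed in the reverse sense. Limma called both regions at 11 genes, of which 10 had the first pattern. The median log2 change was -0.19 after set1 RNAi (range -0.45 to 0.11) and 0.11 after mll RNAi (range 0.05 to 0.21). Across these 18 genes the sizes were not related in an orderly way (Pearson's r -0.11, Spearman's rho -0.23), and the genes share libraries and so are not independent. Among the other 4351 pairs of single-start regions of 1 gene, 713 had the first pattern, 1554 the reverse, 1055 were lower in both and 1029 higher in both. Limma called both regions in 585 of these pairs. Of the 585, 116 had the first pattern, 228 the reverse, 179 were lower in both and 62 higher in both. The RNAi times differed between the 2 comparisons, so gene and time cannot be told apart.

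The 4 genes with the largest changes of this kind were alike in every library. SMED30034934 (v31.007716, 5701 to 8000 for set1) had 1711 and 1725 after set1 RNAi against 2009 and 2069, and in the mll region (5601 to 7900) 1729 and 1693 against 1496 and 1578. Its log2 changes were -0.25 and 0.16 (SE 0.04 and 0.03, limma adjusted p 5.93e-09 and 3.45e-05). SMED30020317 (v31.004356) had 1404 and 1416 against 1745 and 1835 after set1 RNAi and 2014 and 1904 against 1776 and 1760 after mll RNAi, or -0.34 and 0.15. SMED30029763 (v31.004990) changed by -0.37 and 0.14, and SMED30019682 (v31.002229) by -0.26 and 0.14. Enrichment followed the counts at SMED30034934 (11.4 against 12.0 after set1 RNAi, 12.9 against 9.83 after mll RNAi) and at SMED30019682 (11.9 against 12.2, and 11.9 against 9.51). It did not at SMED30029763, where it was lower in both (9.52 against 11.1, and 8.68 against 9.74), nor at SMED30020317, where it was higher after set1 RNAi (11.3 against 10.7).

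**Figure D4:**
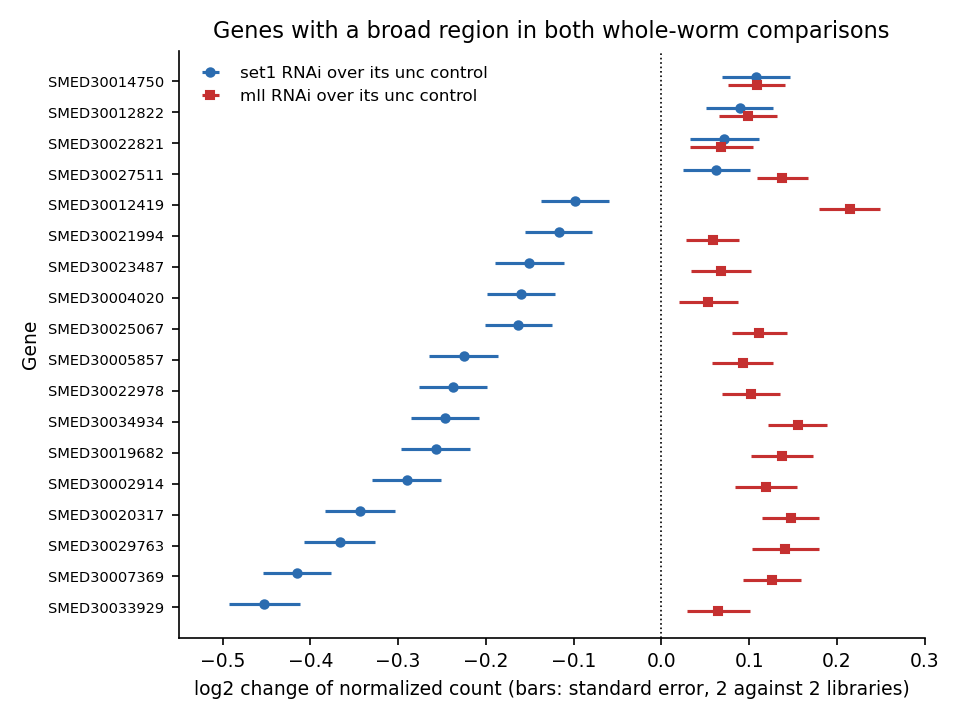
Log2 change of the normalized count (horizontal) at the 18 genes (vertical) with a broad region after both set1 RNAi (blue circles) and mll RNAi (red squares) in whole worms; bars are limma standard errors from 2 against 2 libraries. The set1 points lie between -0.45 and 0.11 and the mll points between 0.05 and 0.21, with 14 genes split by the line at 0.

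In X1 cells the listed changes were larger and nearly all were losses. Depth was lower there, with medians of 73.5 to 234.5 reads per library at the broad set1 regions whose reads could be recovered (10 of 12). Over all set1 regions the smallest absolute log2 change was 0.31 in X1 and 0.00017 in whole worms. Smaller changes were thus absent from the X1 list, and the part of depth in the larger changes was not tested. After set1 RNAi 11 of 12 broad regions were lower and all 11 were called (99.8% of all 554 regions were called lower), and in every one the groups were apart (100% of all regions). The median of the 12 was -1.12, against -0.88 at shorter single-start regions, and the median enrichment went from 8.86 in the control to 3.22. The 11 lower regions kept an enrichment of at least 2.45 after RNAi.

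SMED30022325 carried 2 of these regions, on different scaffolds, and had the largest falls. On v31.009816 (1 to 2100) the X1 counts were 33.1 and 52.3 against 186 and 148, and on v31.005936 (21201 to 23500) they were 65.2 and 57.5 against 176 and 204 (log2 changes -1.97 and -1.61, SE 0.15 and 0.13, limma adjusted p 4.38e-33 and 3.16e-32). The sources do not say whether the 2 stretches share reads. SMED30033147 (v31.017647, 7101 to 9100) had 48.6 and 45.2 against 123 and 142 (-1.48, SE 0.16) and SMED30005804 (v31.012988, 5001 to 7200) had 96.0 and 88.4 against 236 and 209 (-1.26, SE 0.11). All of these also fell in whole worms, in shorter listed stretches, by 0.60 at SMED30033147 and 0.35 at SMED30005804. A second whole-worm stretch, sharing 300 bases with the SMED30005804 region, had a log2 change of 0.03 (SE 0.06, limma adjusted p 0.629). The longest broad region, at SMED30017721 (v31.013531, 6201 to 8900), had 98.9 and 99.3 against 225 and 229 (-1.19, SE 0.11). The same gene held a broad mll region in whole worms at 0.09 (SE 0.03, limma adjusted p 0.0289), as did SMED30010969 (-0.99 after set1 RNAi in X1 and 0.12 after mll RNAi in whole worms).

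The highest enrichments in X1 after set1 RNAi were at SMED30014980 (v31.001379, 17601 to 19600), at 7.79 against 10.1, and SMED30030946 (v31.029139, 1301 to 3300), at 6.08 against 10.1, which were also the 2 smallest falls (-0.64 and -0.76, SE 0.09 and 0.11). The 1 region that rose was at SMED30022026 (v31.007354, 22801 to 25200; 0.181% of all regions were called higher). Its counts were 1020 and 1052 against 801 and 873, the highest of the 12 regions, but its enrichment was 0.89 after RNAi and 0.82 in the control. It was thus under input in both groups and had no H3K4me3 measured above it.

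After mll RNAi in X1, all 5 broad regions were lower and called (92.2% of all 306 regions were called lower and 6.54% higher), with the groups apart in each (99.3% of all regions). Their median log2 change was -1.20, against -1.09 at shorter single-start regions. SMED30000566 (v31.044442, 1 to 2100) fell most, from 135 and 129 to 25.2 and 20.3 (-2.49, SE 0.16, limma adjusted p 1.47e-06), and its enrichment from 9.10 to 1.32, close to input. The identical stretch was a broad region in whole worms, where it fell from 818 and 763 to 546 and 499 (-0.60, SE 0.05) and kept an enrichment of 6.53. SMED30033662 (v31.000662, 109401 to 111400) had 64.0 and 57.4 against 188 and 187 (-1.61, SE 0.11), and a shorter stretch of it fell in whole worms by 0.82 (SE 0.05).

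SMED30029526 (v31.003678, 33601 to 35600) was the other gene with a broad region in X1 and in whole worms. Its X1 counts were 217 and 214 against 354 and 354 (log2 change -0.71, SE 0.04), and its whole-worm counts 930 and 957 against 1334 and 1398 (-0.53, SE 0.04). SMED30016599 (v31.003048, 6401 to 8500) fell by 1.20 on the log2 scale, and SMED30006138 (v31.022779, 8701 to 10700) by 1.01. At SMED30016599 a stretch fell in X1 after set1 RNAi too (-0.98, SE 0.18), which makes it the 1 broad mll region in X1 that met a set1 region of X1. At SMED30006138 the set1 value in whole worms was 0.18 (SE 0.06, limma adjusted p 0.0103), a rise.

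**Figure D5:**
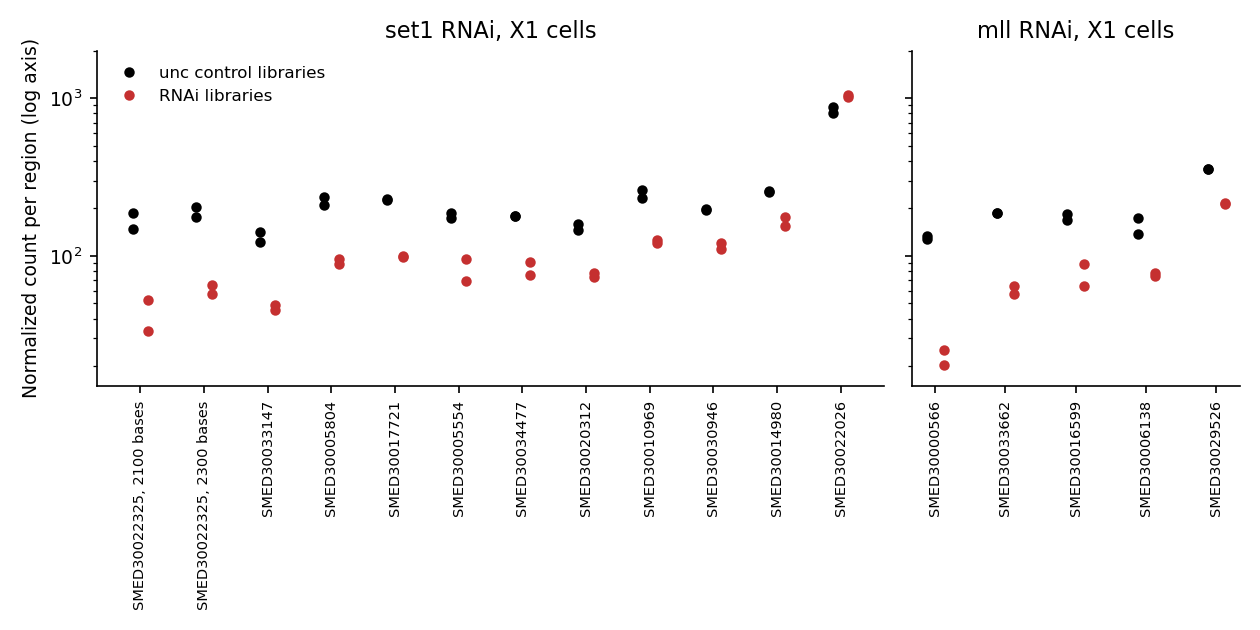
Normalized count of every library (vertical, log axis) at the 12 broad set1 regions (left) and the 5 broad mll regions (right) in X1 cells; black points are the 2 unc control libraries and red points the 2 RNAi libraries of each region, ordered from the largest fall. The groups do not overlap at any region, and SMED30022026 at about 1000 is the only one with the RNAi libraries above the controls.

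Broad whole-worm regions were then set against the regions that set1 RNAi changed in X1, whatever their length. The X1 list came from other libraries, and the labels do not say whether these came from separate worms. Of its 554 regions 553 were lower after RNAi, so the direction met in X1 was nearly fixed by the list. Of the 65 broad regions lower after set1 RNAi in whole worms, 36 (55.4%) overlapped a set1 region of X1. Of the 39 higher ones 3 did (7.69%). Over all whole-worm set1 regions these shares were 11.2% of the lower and 5.22% of the higher. Longer regions can meet others more easily, and the part of length in these shares was not tested. The midpoint of the stretch lay inside an X1 region at 32 of the 65 (49.2%) and at none of the 39, against 10.3% of all lower and 0.314% of all higher regions. Seen from the other list, the broad regions met 39 of the 554 X1 regions (7.04%), and all whole-worm set1 regions together met 86.6%.

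Broad regions that were higher after mll RNAi met the same X1 list. Of 147, 62 (42.2%) overlapped a region lowered by set1 RNAi in X1, against 14.8% of all higher mll regions, and 36 (24.5%) did so at their midpoint, against 10.9%. Of the 31 lower ones 3 did (9.68%, against 6.50% of all lower mll regions). Together, broad mll regions took in 66 of the 554 X1 regions (11.9%), and all mll regions 80.9%. Of the 106 regions listed after set1 RNAi in Xins, every one of them lower, they took in 26 (24.5%), and all mll regions together took in 94.3%. One was overlapped by 25 of the 178 broad mll regions, and by 2.28% of all mll regions. The mll regions of X1 were compared in the same way. Of the 306 listed there, 283 were lower after RNAi. Among the 31 broad regions lower after mll RNAi in whole worms, 6 (19.4%) overlapped an mll region of X1, all lowered, against 5.59% of all lower regions. Among the 147 higher ones 7 did (4.76%), of which 5 were higher in X1 as well, against 1.18% of all higher regions.

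Broad regions of the untreated comparison were set against the whole-worm lists in the same way. Of 232, 40 (17.2%) overlapped a set1 region and 32 (13.8%) an mll region of whole worms, against 57.0% and 48.5% of all regions of that comparison, in spite of their greater length. Their low density per base has been given above, and its part in this was not tested. A set1 region of X1 was overlapped by 19 of the 145 higher in X1 (13.1%, against 15.9% of all regions higher in X1) and by none of the 87 higher in Xins (1.36% of all regions higher in Xins). An mll region of X1 was overlapped by 10 of the 145 (6.90%, against 4.29%) and by none of the 87 (against 2.52%), and all of those X1 regions were lowered by RNAi. At SMED30016975, for example, the stretch fell in X1 after set1 RNAi from 165 and 179 to 67.1 and 81.2 (log2 change -1.21, SE 0.12, limma adjusted p 4.72e-20). No gene had a broad region in both the untreated comparison and an RNAi comparison, and none had one in 3 comparisons. The untreated comparison was held only in part, up to scaffold 1565 of its second run of scaffolds, so these counts hold for the scaffolds it covered.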

How the data were processed

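H3K4me3 ChIP-seq was deposited as 7 diffReps tables, each of 2 against 2 libraries (28 of 58 labelled samples, which are 29 H3K4me3 and 29 input). The authors' values used here were the normalized read count of each library per region, a signal scaled between libraries, and the enrichment over input of each group, a ratio. Columns of the authors' own comparisons (fold changes, p-values, direction and window values) were not used. The labels name CASAVA 1.8.2, Bowtie and MACS2; the sources used here give neither the diffReps version and test nor the genome build, nor whether the Drosophila cells mentioned in the protocol served to scale libraries. Each region was taken once. log2(normalized count + 1) was fitted with limma 3.58.1 (R 4.3.3, empirical Bayes with a trend on the mean) over all regions of a table, after tests on simulated data. Reads per library were recovered from the steps of the normalized counts (tolerance 0.0075), which limit precision most in Xins; the steps changed between runs of scaffolds, so no count model was fitted.

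The broad regions, the comparisons and the lists were chosen with earlier results of these data known. The text names, per table, the 4 largest called falls and rises with groups apart and a mean count of 20 or more (all members where there are 8 or fewer), the 3 longest (1 in X1 tables), the 2 with the highest mean enrichment, and the 4 shared genes with the largest smaller change; other names are marked as chosen after their values were seen, or came from overlap with these. Alternatives changed the pseudocount, the minimum count, the trend, centring, the length and start limits, the overlap and the libraries used. The midpoint overlap and the matches to regions of any length were added after seeing the data.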

Additional observations from a re-analysis of the deposited data

Results flagged for a closer look

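At 5 broad whole-worm regions every RNAi library lay above its controls, while a region overlapping it in X1 cells had every RNAi library below its controls. The X1 stretches overlap the broad regions only in part (500 to 1100 shared bases), and the difference between whole worms and X1 was not tested. Of the 554 set1 regions of X1, 553 were lower after RNAi, so the direction met there was nearly fixed by the list. Of all higher set1 regions in whole worms 233 overlapped one, and all 233 met a lower one. After mll RNAi 2 of 7 higher broad regions met a lower X1 region, and 10 of 26 of all higher regions did.

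For set1 RNAi these were SMED30027511, SMED30014750 and SMED30012216. Their log2 changes were 0.06, 0.11 and 0.10 in whole worms and -0.87, -0.83 and -0.85 in X1, which are differences of 0.93, 0.94 and 0.95. The X1 stretches held no gene start. At SMED30014750 the X1 counts were 45.9 and 60.6 against 95.0 and 94.0 in the control, and at SMED30012216 52.5 and 54.9 against 102 and 94.0. For mll RNAi they were SMED30018637 (0.14 in whole worms and -0.08 in X1, a difference of 0.22) and SMED30034512 (0.07 and -0.18, a difference of 0.26). The X1 value at SMED30018637 did not pass the limma threshold (adjusted p 0.103), and neither did the whole-worm value at SMED30027511 (adjusted p 0.173).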

How the results depend on the processing

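No paired analysis was possible because the 2 libraries of a group share a column that carries no replicate number. At 1500 bases or more, limma called 429 regions (X1 and Xins), 1001 (set1, whole worms), 75 (set1, X1), 889 (mll, whole worms) and 104 (mll, X1), with median log2 changes of 0.89, 0.028, -0.98 and -0.043 in the first 4, so both whole-worm medians changed sign (main values -0.13 and 0.09). At 3000 bases or more the calls were 21, 1 and 5 in the X1 and Xins, set1 and mll whole-worm comparisons, the set1 median was -0.43, and no X1 region was left. A minimum absolute log2 change of 0.5 left 1 of the 95 set1 and 6 of the 120 mll whole-worm calls. For mll in whole worms, 77 calls were made without the trend, and centring on the median of all regions moved the median from 0.09 to 0.12. Leaving out single libraries gave 1 to 232 calls in the X1 and Xins comparison (230 with all; where 1 library was left in a group, its spread was taken from the other group), 68 to 81 for set1 and 79 to 100 for mll in whole worms, medians of 1.39 to 1.68 for X1 and Xins and of -1.43 to -0.98 for mll in X1. Of broad set1 regions against mll regions of any length 50 of 115 pairs were lower after set1 and higher after mll RNAi, and of broad mll regions against set1 regions of any length 137 of 298. The Xins comparisons after RNAi, with no broad region, gave no values. Depth limits the Xins levels most.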
